A study of Mus musculus with 12 samples.

Results

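A processed transcript is a gene model whose RNA is spliced or otherwise processed but has no recognised reading frame, a class that gathers antisense RNAs, RNAs that host small RNAs, and many unnamed loci. Regions at such genes were taken as all distinct regions in rows of the deposited Runx1b DamID-seq table with the biotype processed_transcript, which gave 386 regions of 8133 in all, at 326 genes of 5867. Of these genes 218 (66.9%) carried only a predicted model name, 84 (25.8%) a RIKEN clone name and 18 (5.52%) a clone or cDNA name, and 6 had a name of another kind. The table does not state strand, and the libraries are of genomic DNA, so neither the level of any RNA nor the markers of the labelled cell type could be read from them.

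The libraries came from haemogenic endothelium, the vessel-lining cells that give rise to blood, derived in culture from strain 129 mouse embryonic stem cells. Both lines lack Runx1 (runx1-/-). The line iRunx1b::Damko carries the fusion of Runx1b, a Runx1 isoform, to the bacterial adenine methylase Dam, and iDamko carries Dam alone. Each line had 6 libraries, 3 biological replicates and 3 named as technical repeats. In each line 2 libraries were from cKIT+ TIE2+ CD41- cells obtained by flow cytometry and 4 from FLK1+ cells obtained by magnetic selection, after FLK1+ cells of day 3.25 embryoid bodies had been cultured for 2 days. The table holds 1 pooled value per gene, so there is no replicate error, no Dam control value and no test between the lines. Reads per kb below are signal within the authors' regions, with 95% Poisson intervals that cover counting error only. The depth of each library is unknown, and PCR copies of 1 fragment count as separate reads.

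As background, long non-coding RNAs act in cis or in trans, or serve as carriers from which microRNAs and small nucleolar RNAs are cut, and an antisense RNA is copied from the opposite strand of a neighbouring gene. RUNX proteins bind DNA at a short core sequence and recruit activators or repressors. DamID marks GATC sites near the bound protein, so a region shows proximity and does not say which of several genes that overlap it is controlled.

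MicroRNAs lie within 3 of the genes in RefSeq, and those of Mir22 and Mir101a are printed as the better known, while Mir6516, within 2810008D09Rik (Snhg20), is only named. In RefSeq (GRCm38.p6) the gene listed as 2210403K04Rik is Mir22hg, the host of the microRNA Mir22, and E130102H24Rik spans Mir101a. Capitals mark the seed, bases 2 to 8, with which a microRNA pairs to its targets, and the 4 seeds differ from one another.
mmu-miR-22-5p: aGUUCUUCaguggcaagcuuua
mmu-miR-22-3p: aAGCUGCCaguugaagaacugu
mmu-miR-101a-5p: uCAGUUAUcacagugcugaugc
mmu-miR-101a-3p: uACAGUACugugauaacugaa

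RefSeq promoters (GRCm38.p6, 250 bases before to 50 after the start) are shown for 4 genes taken up below: the microRNA host, the gene that shares a region with the chaperone gene Calr, and the antisense partners of Meis1 and Cd82. Capitals mark the RUNX core TGTGGT or its reverse complement ACCACA. A search for the variant TGCGGT, or for ACCGCA on the opposite strand, found no match in these 4 windows.
Mir22hg, chr11:75461289-75461588, plus strand: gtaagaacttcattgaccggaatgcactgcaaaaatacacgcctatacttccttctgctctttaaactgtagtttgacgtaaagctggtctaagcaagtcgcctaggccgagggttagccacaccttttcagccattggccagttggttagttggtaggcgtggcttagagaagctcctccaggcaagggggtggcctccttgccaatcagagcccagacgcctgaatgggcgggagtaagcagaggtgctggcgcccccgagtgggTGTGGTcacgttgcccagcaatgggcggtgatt
1700122E12Rik, chr8:84846897-84847196, plus strand: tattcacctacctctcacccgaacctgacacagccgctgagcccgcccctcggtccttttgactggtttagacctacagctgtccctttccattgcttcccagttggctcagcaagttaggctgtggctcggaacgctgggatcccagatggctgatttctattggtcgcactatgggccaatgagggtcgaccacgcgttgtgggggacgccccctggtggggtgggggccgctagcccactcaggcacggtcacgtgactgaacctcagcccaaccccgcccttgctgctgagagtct
Gm16141, chr11:18989402-18989701, plus strand: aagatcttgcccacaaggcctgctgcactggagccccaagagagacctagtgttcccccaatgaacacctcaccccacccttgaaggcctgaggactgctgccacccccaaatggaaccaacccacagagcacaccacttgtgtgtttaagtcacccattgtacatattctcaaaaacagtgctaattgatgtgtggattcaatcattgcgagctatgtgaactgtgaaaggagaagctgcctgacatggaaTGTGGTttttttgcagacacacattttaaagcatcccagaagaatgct
Gm10804, chr2:93452569-93452868, plus strand: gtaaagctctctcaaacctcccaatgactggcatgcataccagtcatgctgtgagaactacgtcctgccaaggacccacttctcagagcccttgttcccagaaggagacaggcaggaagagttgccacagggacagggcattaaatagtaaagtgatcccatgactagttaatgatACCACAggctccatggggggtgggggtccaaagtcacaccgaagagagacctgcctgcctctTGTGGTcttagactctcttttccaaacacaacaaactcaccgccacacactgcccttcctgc

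Mir22hg and Gm16141 each hold 1 match to TGTGGT on either strand, Gm10804 holds 2, and 1700122E12Rik holds 0. Of all 32851 promoters, 16.8% hold TGTGGT and 6.45% hold TGCGGT, in either orientation. The promoters shown were picked from genes taken up in the text and not drawn by a rule. Their matches therefore cannot be weighed against shares over all promoters. GATC, the Dam site, is in 48.0% of all promoters, and occurs once in Gm16141, in 1700122E12Rik and in Gm10804 and not in Mir22hg. The promoters are of another build than the regions, which are on mm9, so whether a region covers a promoter was not analysed here. Gm16141 has a further RefSeq start, whose window is not shown and holds 0 matches to TGTGGT. Only 139 of the 326 genes (42.6%) had a RefSeq promoter, so a motif share over the whole class would be void.

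The signal at processed transcripts was close to that at other genes. Their median was 684 reads per kb (quartiles 485 and 938) against 683 (515 and 918) over all 5867 genes, 686 over protein-coding genes and 709.9 over long intergenic RNA genes. At 1000 reads per kb or more stood 71 of the 326 (21.8%), where the background over all genes was 20.3%. Under 250 reads per kb stood 30 (9.20%, 95% exact interval 6.30 to 12.9), against 6.63% of all genes. Both shares lie near the background.

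The 10 processed transcripts with the most reads per kb lay between 1648 and 2682. Of these, 6 shared a region with a protein-coding gene, and of all 326 processed transcripts 133 did (40.8%). Gm17057 was highest, with 6573 reads at 2682 reads per kb (2617 to 2747) on chromosome 15 between 99649205 and 99651655. That region is also assigned to Lima1, which encodes an actin-bundling protein, and Lima1 with its 2 regions had 2037. Mir22hg followed, with 7825 reads at 2483 (2429 to 2539) on chromosome 11 between 75271985 and 75275135. Its region was assigned to no other gene, and the nearest region of a protein-coding gene was 24.7 kb away at Prpf8, which encodes a core spliceosome protein. Mir22hg exceeded 99.5% of the listed genes.

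The third was 1700122E12Rik, at 2461 reads per kb (2405 to 2517) on chromosome 8 between 87369698 and 87372698. The same single region is the only one of Calr, which encodes the endoplasmic reticulum chaperone calreticulin, so both genes hold 1 and the same measurement. In RefSeq the pair lies head to head. Gm16156 had 2060.4 (2000.2 to 2122) in a region shared with Lcat, a plasma lipid enzyme, and Psmb10, a subunit of the immunoproteasome. Gm12514 had 1896 and Gm12249 had 1712, and neither shared its region, which lay 135 kb and 30.7 kb from the nearest protein-coding region, at Zfp462 and Larp1. Gm12977 had 1877 in the single region of Rps6ka1, a kinase activated by the MAP kinase pathway, to which it is antisense in RefSeq.

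4930586N03Rik had 1808 reads per kb over 2 regions. BC028471 had 1759 over 2 regions of 6330406I15Rik, and Gm10818, named Tnk2os in RefSeq and antisense to the Cdc42-associated kinase gene Tnk2, had 1648 (1601 to 1695). Tnk2 had 971 reads per kb over 5 regions, of which the antisense RNA shares 1. At the other end, the 5 genes with the fewest reads per kb were all on the X chromosome. They were Gm14661 (56.7 reads per kb), Itih5l-ps (76.7), Gm15202 (78.6), 2210013O21Rik (79.4) and Gm6938 (81.0, from 77 reads).

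**Figure D1:**
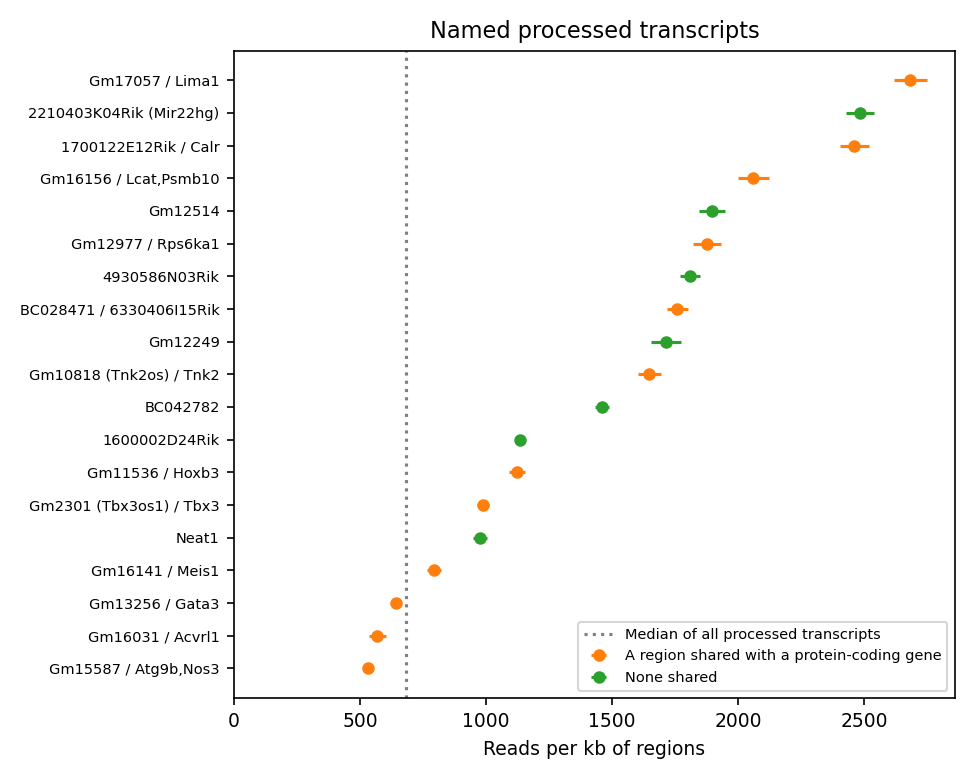
Reads per kb of the regions of 19 processed transcripts taken up in the text. RefSeq names stand in brackets, and protein-coding genes that share a region after the slash. The set is the 10 highest and others picked from the text, so it does not show the spread of the class. Points are the authors' pooled values (orange where a region is shared with a protein-coding gene, green where none is), bars 95% Poisson intervals, and the dotted line the median of all 326 (684), with Gm17057 at 2682 and Mir22hg at 2483 farthest above it.

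Values on the X chromosome lay below those on autosomes for processed transcripts and for all genes alike. The 23 processed transcripts on X had a median of 158 reads per kb, between 56.7 and 766, and the 303 on autosomes had 722, between 84.7 and 2682. Over all genes the medians were 160 on 327 X genes and 701 on 5540 autosomal genes. X genes made up 16 of the 30 processed transcripts under 250 reads per kb (53.3%) and 205 of the 389 genes of all types under it (52.7%). The highest X value, 766, was at 2900008C10Rik, whose 3 regions are all shared with Bcor, a corepressor gene, and which RefSeq treats as Bcor itself. The number of X chromosomes in these lines was not analysed here, and its part in these values was not tested.

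**Figure D2:**
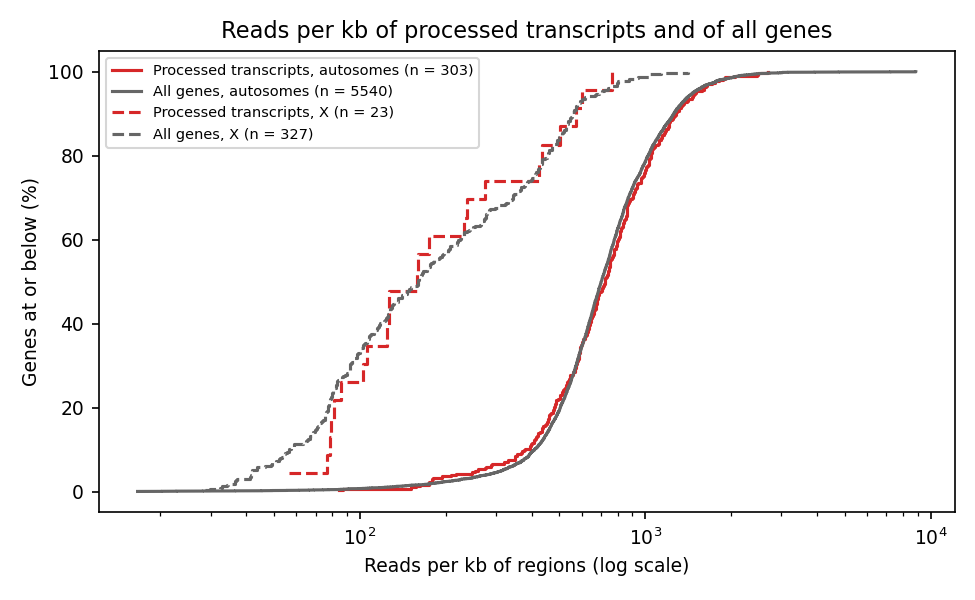
Share of genes (vertical axis, %) at or below a number of reads per kb (horizontal axis, log scale) for processed transcripts (red) and all genes (grey), on autosomes (solid) and X (dashed). The red and grey curves run close together, and both X curves lie far to the left, with medians of 158 and 160.

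Regions at processed transcripts crowded on chromosomes 2, 4 and 11, and to a lesser degree on X when counted as regions. Chromosome 2 held 80 of the 386 regions (20.7%, 95% exact interval 16.8 to 25.1). Chromosome 11 held 55 (14.2%), chromosome 4 held 51 (13.2%) and X held 34 (8.81%, 6.18 to 12.1). Over all regions these shares were 8.30%, 7.13%, 6.06% and 5.16%. Counted as genes, the shares on X lay closer together, at 23 of the 326 processed transcripts and 327 of all 5867 genes. These 4 chromosomes, pooled after their shares were seen, together held 57.0% of processed transcript regions (51.9 to 62.0), 24.5% of the regions at protein-coding genes and 22.4% of those at long intergenic RNA genes (18.4 to 26.8). The intervals cover counting error only, and how far the gene models themselves crowd on these chromosomes was not tested. Reads per kb of the processed transcripts there were not higher, with medians of 641 on chromosome 2, 717 on chromosome 11 and 734 on chromosome 4, against 707, 812 and 740.5 for all genes there.

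**Figure D3:**
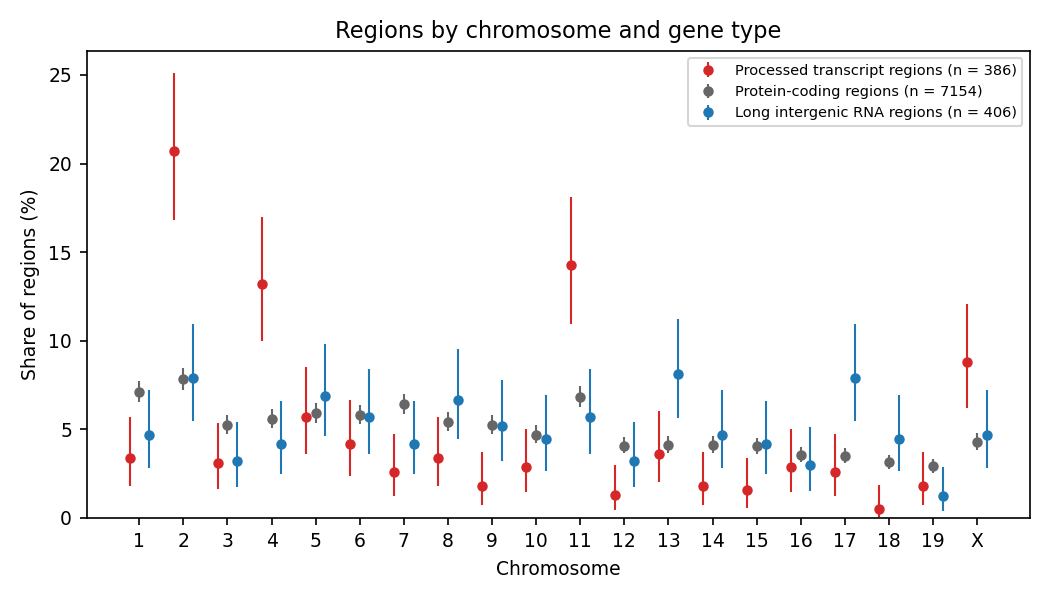
Share of regions (%) on each chromosome for processed transcripts (red), protein-coding genes (grey) and long intergenic RNAs (blue), with exact 95% binomial intervals. Processed transcript regions stand at 20.7% on chromosome 2, 14.2% on 11 and 13.2% on 4.

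The regions were of ordinary width. Their median was 2150 bp (quartiles 1650 and 2800 bp) against 2100 bp (1650 and 2850 bp) over all regions, they covered 965 kb in all, and 31 of 386 (8.03%) were 4500 bp or wider, where the background was 7.68%. The widest, 8900 bp on chromosome 2 between 9791424 and 9800324, belonged to Gm13256 and is shared with the transcription factor gene Gata3. It was followed by regions of C230035I16Rik and Gm15650 (8600 bp each), Gm5535 (8100 bp) and Gm13847 (7600 bp). The narrowest were 3 regions of 800 bp, 2 at Gm8817 and 1 at Gm15008, then 850 bp at Gm14661 and 950 bp at Gm6938 and at Gm14720. All of these were on X, where the processed transcript regions had a median of 1675 bp, against 2200 bp on autosomes, and every one under 1250 bp was on X. Over all X regions the median was 1350 bp.

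Reads per kb by width were close to those of all regions. A read count of its own could be given to 280 of the 386 regions (72.5%). Their median was 565 reads per kb in 34 regions under 1500 bp, 675 in 147 regions of 1500 to under 2500 bp, 711 in 79 regions of 2500 to under 4500 bp and 754 in 20 regions of 4500 bp or more. Over all regions such a count could be given to a smaller share, 3952 of 8133 (48.6%), and there the medians were 562, 659, 699 and 727. Narrow regions lay on X more often for both, with 8 of the 34 under 1500 bp there and 147 of 589 over all regions. On autosomes alone, a setting added after the data were seen, the processed transcript medians were 608, 720.2, 714 and 781. Their middle classes thus no longer stood in order of width. Over all autosomal regions the medians were 642, 670, 704 and 741, still in order of width.

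**Figure D4:**
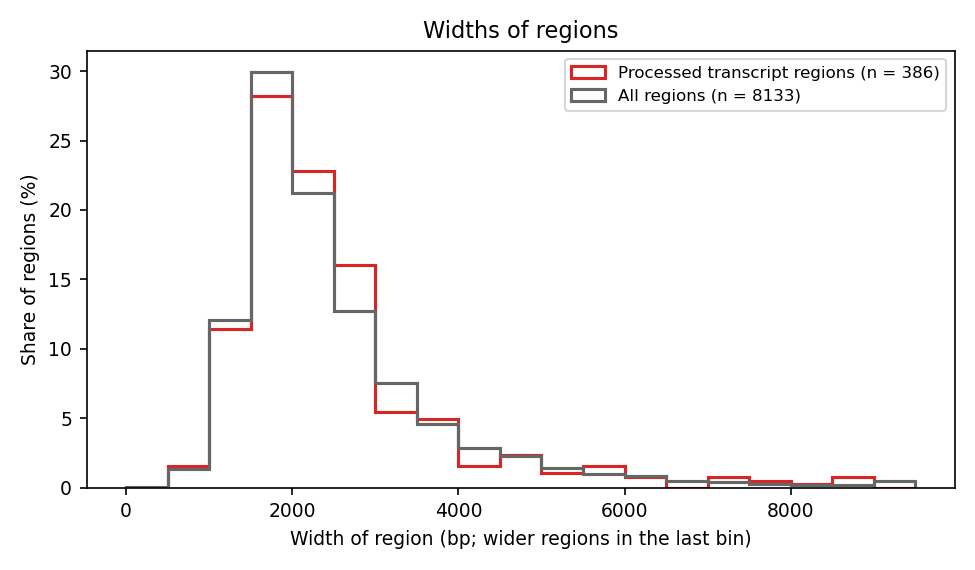
Share of regions (%) by width in bins of 500 bp, for processed transcript regions (red) and all regions (grey), with wider regions drawn in the last bin. Both outlines peak between 1500 and 2000 bp, with medians of 2150 and 2100 bp.

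Most processed transcripts had a single region, 277 of 326 (85.0%), where 72.3% of all genes did. Another 33 had 2, 13 had 3, 2 had 4 and 1 had 5. The gene with 5 regions was 1600002D24Rik, with 20103 reads at 1132 reads per kb (1117 to 1148) spread over 107.5 kb of chromosome 16 between 96046364 and 96153864. None of its regions was shared, and they were 7250, 2950, 4600, 1600 and 1350 bp wide. The nearest region of a protein-coding gene, 382.5 kb away, belonged to Erg, an ETS factor of endothelial and blood stem cells, which had 933 reads per kb over 4 regions. That gap, between regions and not to the gene, exceeded the upper quartile of 187 kb for regions not shared with a coding gene.

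The genes with 4 regions were Gm13847, at 649 reads per kb on chromosome 6, and Gm8817, at 238 on X. Gm13847 lay 56.5 kb from a region of Podxl, which encodes a sialomucin of vascular endothelium and blood progenitors. Of those with 3, BC042782 had the most reads per kb, 1458 (1430.2 to 1486), on chromosome 4 between 94719459 and 94825109. Its nearest protein-coding region, at Tek, the angiopoietin receptor gene, was 283 kb away, again beyond the upper quartile of 187 kb. Gm11211 had 1262 near Rgs3, a regulator of G protein signalling, and Gm2301 had 987. The others with 3 regions ranged from 174 at A630012P03Rik on X to 1285 at AC114420.4.

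Regions of processed transcripts were often assigned to another gene too. Of the 386, 145 (37.6%) were assigned to 2 or more genes, against 8.37% over all regions and 36.5% (148 of 406) of regions at long intergenic RNA genes. With a protein-coding gene 137 (35.5%, 95% exact interval 30.7 to 40.5) were shared, and 241 (62.4%) were assigned to the processed transcript alone. These 137 regions belonged to 133 processed transcripts and 149 protein-coding genes. Of the regions 122 had 1 protein-coding partner and 15 had 2 or more, up to 4 at RP23-324B17.1 within the Ugt1a genes.

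In 82 of 154 pairs of a processed transcript and a protein-coding gene, both were listed with exactly the same regions, so their read counts are 1 measurement. In the other 72 pairs the processed transcript had more reads per kb than its partner in 32 and fewer in 40. Each of these pairs has at least 1 region in common, so part of the reads is the same on both sides. Processed transcripts with a shared region had a median of 725 reads per kb (n = 133) and those without 673 (n = 193). The median width was 2250 bp for shared and 2100 bp for other regions. Their quartiles overlap widely, and no test was made.

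Strand could be looked up in RefSeq for only 34 pairs (22.2% of 153), too few for a statement on the whole class. Of these, 27 were antisense overlaps, 3 lay in tandem, 2 lay head to head and 2 were the same RefSeq gene. Some antisense pairs were picked after their values were seen. Gm15527, at 1610 reads per kb, was paired with Chn2, which encodes a GTPase-activating protein for Rac. Gm11465, at 1580, was paired with Zmynd8, a chromatin reader. Chn2 itself had 815 over 4 regions and Zmynd8 had 1039 over 6, so in both pairs the shared region stood above the average of the coding gene. The opposite held for 2810442N19Rik, at 420 against 569 for Dnm3, a dynamin.

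Of the partner lists, 2 of the 27 endothelial and blood transcription factor genes with a region (7.41%) shared one with a processed transcript, 0 of 47 vessel and adhesion genes did and 0 of 18 signalling genes did, against 149 of all 4771 protein-coding genes (3.12%). The 2 were Meis1, a homeobox gene of blood stem cells, and Gata3, a factor of T cells and of the early blood-forming aorta. Gm16141, antisense to Meis1, had 3332 reads at 793 reads per kb (766 to 821) on chromosome 11 between 18914485 and 18918685, and Meis1 had 735 over 4 regions. Gm13256 had 5733 reads at 644 (628 to 661), and Gata3 had 784 over 3 regions. The promoter of Gm16141 is among those printed above.

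Other partners with known roles in vessels and blood were chosen after their values were seen. Gm15587 shared both its regions with Nos3, the endothelial nitric oxide synthase gene, at 531 reads per kb (515 to 548), and Gm16031, at 568, shared its region with Acvrl1, an endothelial receptor of the BMP family, which had 648 over 4. Gm15581 had 672 in the single region of Cav1, the gene of the caveolar coat protein. Gm16271, at 1012 over 2 regions, is antisense to Stab2, a scavenger receptor gene of sinusoidal endothelium, whose single region had 1312. In the blood lineage, 4930469K13Rik had 624 in the region of Lcp2 and Gm2245 had 366 in that of Fyb, both adaptors of haematopoietic cells. Gm10804 had 804 in the region of the tetraspanin gene Cd82.

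Some further partners are known from development, and they too were chosen after their values were seen, out of 149 and not from a fixed list. Gm11536 held the same 2 regions as Hoxb3, at 1121 reads per kb (1090.5 to 1152). 0610040B09Rik, which RefSeq names Hoxb5os, had 525 in the single region of Hoxb6, and RP23-313J15.15 had 456 in that of Hoxd10. Gm2301, named Tbx3os1 in RefSeq, had 987 over 3 regions (965 to 1009), of which 1 is the only region of the T-box gene Tbx3, at 1176. Gm16176 had 1479 in 1 of the 2 regions of Igf1, a growth factor gene with 875 reads per kb in all, and Gm16263 had 1115 in 1 of the 2 regions of Fgf10, which had 815. The region of Gm16764, at 1025, is the only region of the homeobox gene Nkx1-2 and is also 1 of 19 assigned to the receptor gene Fgfr2, which had 828, though it lay 86.7 kb from the next of these. The protein-coding genes that shared the most regions were 6330406I15Rik and Bcor with 3 each, then Crtc3, Hoxb3, Macrod2 and Nos3 with 2.

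The regions not shared with a coding gene lay about as far from coding genes' regions as those of long intergenic RNAs did. The 249 regions not shared with a protein-coding gene were a median of 81.9 kb (quartiles 37.9 and 187 kb) from the nearest region of one, against 78.2 kb for 272 regions at long intergenic RNA genes. Within 10 kb lay 14 (5.62%), within 100 kb 139 (55.8%) and within 500 kb 240 (96.4%). For the long intergenic RNAs these shares were 8.82%, 57.4% and 95.6%. Some neighbours are of interest for the tissue and were picked after their values were seen. Gm13686 (1502 reads per kb) lay 15.45 kb from a region of Itgav, the integrin alpha V gene, and RP24-263P17.1 (1356) lay 24.9 kb from one of Smad7, an inhibitory Smad gene. These are gaps between regions, not to genes.

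**Figure D5:**
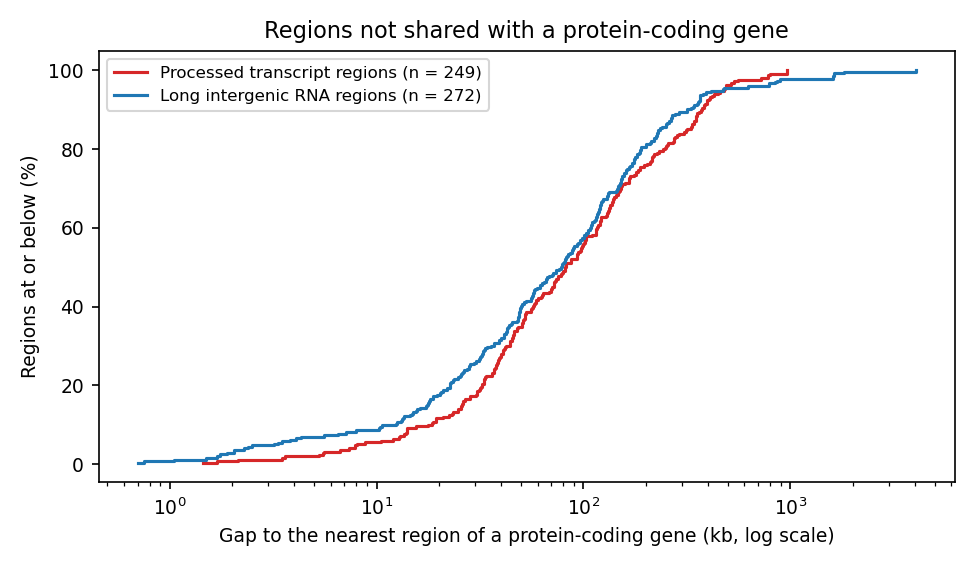
Share of regions (vertical axis, %) whose gap to the nearest region of a protein-coding gene is at or below the distance on the horizontal axis (kb, log scale), for regions not shared with one. The medians are 81.9 kb for processed transcripts (red) and 78.2 kb for long intergenic RNAs (blue).

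Of genes with a name of their own, Neat1 had 4638 reads at 976 reads per kb (948 to 1005). Neat1 is the RNA around which nuclear paraspeckles are built. Its 1 region of 4750 bp lies on chromosome 19 between 5841155 and 5845905. It lay 2.15 kb from a region that Gm9783 (854.5) shares with Frmd8, a FERM-domain gene. The other 5 named genes were T2 at 840 (in a region shared with Sft2d1), a model named Frmd4a at 497 (shared with the coding gene Frmd4a, which had 773 over 12 regions), Gfi1 at 477 (shared with the long intergenic RNA A430072P03Rik), Mettl4-ps1 at 330 (shared with Ndc80) and Itih5l-ps at 76.7. Their median was 487, below that of all processed transcripts, with only 6 genes. In RefSeq Neat1 is a long non-coding RNA, T2, Gfi1 and Itih5l-ps are protein coding and Mettl4-ps1 is a pseudogene. Frmd4a was not matched, so the median is not one of RNA genes alone.

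The list of small RNA hosts, which also takes in other long RNAs such as Neat1, had 42 genes. Of these, 3 were processed transcripts with a region, Neat1 by its symbol and Mir22hg and Snhg20 by RefSeq synonym. No microRNA was found within Neat1 in RefSeq. Snhg20, listed as 2810008D09Rik, had 2039 reads at 510 (488 to 532), and E130102H24Rik, which spans Mir101a and shares its region with another processed transcript, 0610043K17Rik, had 677 (643 to 711). Another 4 genes of that list, Gas5, Snhg4, Snhg12 and Dleu2, stood in the table under other biotypes. None of the 15 genes on the imprinted list and none of the 4 on the X inactivation list was a processed transcript with a region. From the imprinted list 3 genes, Airn, Mest and Sfmbt2, stood under other biotypes. By RefSeq synonym 11 processed transcripts had opposite-strand names, from Frmpd1os at 379 to Tnk2os at 1648.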

How the data were processed

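The labels describe 12 DamID-seq libraries of genomic DNA. The deposited table gives, per the file headers, 1 whole-number read count per gene, summed over the regions assigned to that gene. The signal deposited beside it, in reads per kilobase, equals that count over the summed region length (end positions counted) within 0.006 and is not scaled to library size. Coordinates are on mm9, the build named in the submitters' processing notes. The sources used here do not name how reads were aligned, regions called, libraries pooled or genes annotated. The number of further columns with values of single samples was 0.

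Regions were split at semicolons and distinct ones counted. Width is end minus start, and no neighbouring regions overlap. Regions were shared where the same start and end stood in another gene's row. A region's own read count came from a gene with that region alone or by subtraction, which was tested on simulated data. RefSeq tables (GRCm38.p6) gave names for 173 of the 326 genes, 150 by symbol and 23 by synonym on the same chromosome, and, within that build, the gene positions and strands behind pair orientations and microRNAs within genes. Only coordinates of printed promoters are given from it, and none was set against the mm9 regions. Members and lists were chosen with earlier results of these data known. Most genes were named by rule. The rules took genes with a name of their own, the 10 highest and 5 lowest in reads per kb and those with 3 or more regions. They also took the 5 widest and narrowest regions, partners on fixed lists and the partners that share most. Other genes named (further partners, antisense pairs, neighbours, and genes coding in RefSeq) were chosen after their values were seen. 1 partner gene is not reported here. Intervals are exact Poisson, or exact Clopper-Pearson for shares, at 95%. Python 3.11.15, pandas 2.3.3 and SciPy 1.17.1 were used. No test was made, since each gene has 1 value and regions are not replicates.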

Additional observations from a re-analysis of the deposited data

How the results depend on the processing

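The 6 summary results were recomputed under 27 alternatives, of which 2 (overlap in place of equal ends) could not change a value, since no neighbouring regions overlap, and 4 concern the named genes below. Of the others, 20 stayed within the 95% binomial interval of the value as reported. The exception was the median reads per kb with only genes at or above the median of the whole table, 938 in place of 684, since that choice drops the lower values by construction. On autosomes alone the median was 722. The share of regions shared with a protein-coding gene ran from 35.5% to 38.5%, and was 36.5% with partners of any other biotype. The median of the 6 named genes, 487, has an interval as wide as their range, 76.7 to 976, so it could not show a move. No paired analysis was possible because the table has no value per library, and for the same reason no replicate could be left out. Depth per library is unknown, which limits how firmly low values, such as those on X, can be read.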

Other observations

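Of the 173 processed transcripts matched to RefSeq, 13 are protein-coding genes in that table, including some that encode very small proteins. Spaar, listed as 5430416O09Rik, encodes a short membrane peptide and had 751 reads per kb (731 to 771) in a region of 7300 bp shared with Hrct1. Nbdy, listed as 2210013O21Rik, encodes a micropeptide of RNA processing bodies and had 79.4 (66.7 to 93.7) on X. Fcor, listed as 2400009B08Rik, had 877 and lay 3.6 kb from a region of Trappc5, and Inafm2, listed as 5430417L22Rik, had 836. Gfi1, which encodes a zinc finger repressor of blood formation, stands among the processed transcripts in the table and is protein coding in RefSeq. The rest of the matched genes were 158 long non-coding RNAs and 2 pseudogenes.

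Of the 386 regions, 9 (2.33%) were shared by 2 processed transcripts and 10 (2.59%) with another non-coding gene. Among the latter, RP23-349B4.7, at 1114 reads per kb (1068 to 1162), shared its region with the small nucleolar RNA models AC087117.2 and AC087117.3, 5.5 kb from a region of the heat shock gene Hspa1b.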
